A study of Homo sapiens with 36 samples.

Results

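Mediator occupancy was compared between A549 and BEAS-2B (B2B) cells with the peaks of the Mediator subunit Med1. The members were all Med1 peaks on chromosomes 1 to 12 of both lines, leaving out bins of 1 Mb that hold no annotated transcription start site. This gave 14558 of 17994 Med1 peaks of these chromosomes in A549 and 17420 of 18546 in B2B, together 31978 of the 476964 peaks in the 16 lists of the study. Overlapping peaks of both lines were merged, with 1 bp as the least overlap, into 22172 regions. Of these, 5581 regions were A549-only, 8035 were shared and 8556 were B2B-only.

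Mediator is a large protein complex that bridges factors bound at enhancers and RNA polymerase II (pol II) at start sites. Med1 is the subunit through which nuclear receptors and other activators contact the complex, and its occupancy is widely used to mark active enhancers and promoters. AP-1, a dimer of Jun and Fos proteins, binds many enhancers of epithelial cells, and H3K27ac is a histone mark of active enhancers and promoters.

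A549 is a human lung adenocarcinoma cell line, and B2B is an immortalised, non-cancerous human bronchial epithelial cell line. Neither line was treated, and each line stands for 1 cell culture model. Formaldehyde-fixed chromatin was immunoprecipitated and sequenced (ChIP-seq) in 2 replicates per target and line, and the 36 samples of the study include 4 for Med1. The authors merged the replicates before calling peaks, so that every list is 1 pool and no value below has a replicate error or a test between lines. Intervals are 95% intervals of counting error only. The pileup at Med1 summits, solved from the deposited values, ranged from 8 to 268 reads in A549 and from 8 to 260 reads in B2B, with a median of 19 reads in both, so the depth at single sites was low. Markers of the labelled cell type were mixed at start sites. The simple epithelial keratins KRT7, KRT8 and KRT18 had Med1 at a start in both lines, while 5 of 18 epithelial junction genes and 14 of 20 basal and squamous airway genes had it in neither, and 15 of 32 mesenchymal and matrix genes had it in B2B only. Of all coding genes on these chromosomes, 49% had it in both lines, 37.1% in neither and 10.2% in B2B only. Of 8 markers of blood, endothelium and liver, 7 had Med1 at a start in neither line, and KDR, an endothelial receptor, had it in B2B. The alveolar type II markers were also nearly without Med1, since 6 of 7 had no start-site peak in either line, surfactant genes SFTPA1, SFTPB and SFTPC among them. The exception was another surfactant gene, SFTPD, with Med1 in B2B only. That region lay 982 bp from an SFTPD start, with a fold enrichment of 4.29 and 13 reads.

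The reference sequences of a few regions show what the Med1 summits lay on. Each is 200 bases of hg38 around a summit, plus strand, and is named by the nearest protein-coding gene. Capitals mark 3 motifs searched on both strands: the AP-1 site TGAGTCA or TGACTCA, the core TGACNNNGC of the antioxidant response element bound by NRF2 with a small Maf protein, and the TEAD site GGAATG. The AP-1 site followed by GC (TGACTCAGC) matches both of the first 2. Across all regions, windows of this length held the AP-1 site in 16.9% of A549-only regions, 7.79% of shared regions in A549 and 9.07% of B2B-only regions. The antioxidant response element core was present in 13.96%, 12.5% and 9.47%, and the TEAD site in 12.97%, 9.04% and 16.3%. The regions near TSKU and MAFK ranked 2 and 4 by fold enrichment among A549-only regions over 1 kb from a start site, and the region ranked between them is not shown, so that the windows printed are no measure of how often a motif occurs. The TSKU window held an AP-1 site and the MAFK window an antioxidant response element core, each more than 50 bases from the summit.
TSKU, chr11:76769738-76769937: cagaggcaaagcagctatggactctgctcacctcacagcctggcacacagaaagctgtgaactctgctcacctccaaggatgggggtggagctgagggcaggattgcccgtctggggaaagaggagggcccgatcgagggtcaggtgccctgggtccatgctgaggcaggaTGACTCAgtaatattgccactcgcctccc
MAFK, chr7:1520761-1520960: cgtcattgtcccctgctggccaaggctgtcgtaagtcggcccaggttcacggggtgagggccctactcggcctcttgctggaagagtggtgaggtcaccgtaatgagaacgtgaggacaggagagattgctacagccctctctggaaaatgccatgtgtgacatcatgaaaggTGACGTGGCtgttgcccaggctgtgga

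The next 3 A549-only regions are the highest-ranked that held an AP-1 site or an antioxidant response element core within 50 bases of the summit. They were chosen after their motifs were seen.
TXNRD1, chr12:104220042-104220241: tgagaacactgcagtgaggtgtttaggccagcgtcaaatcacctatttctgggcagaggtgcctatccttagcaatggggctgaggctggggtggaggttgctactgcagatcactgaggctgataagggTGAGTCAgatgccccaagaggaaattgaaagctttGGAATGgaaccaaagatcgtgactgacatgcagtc
UGT1A6, chr2:233700142-233700341: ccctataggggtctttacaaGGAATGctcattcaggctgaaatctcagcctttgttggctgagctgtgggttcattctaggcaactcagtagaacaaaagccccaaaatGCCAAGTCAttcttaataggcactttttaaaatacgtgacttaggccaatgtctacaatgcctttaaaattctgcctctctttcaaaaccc
UCN3, chr10:5291699-5291898: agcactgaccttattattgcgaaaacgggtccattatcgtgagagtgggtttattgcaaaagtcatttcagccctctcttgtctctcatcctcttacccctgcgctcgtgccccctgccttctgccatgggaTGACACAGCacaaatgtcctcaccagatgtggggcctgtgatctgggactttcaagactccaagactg

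The B2B-only regions near KLF9, ACKR3 and ERGIC1, ranked 1, 3 and 4 among their kind, held none of the 3 motifs in these windows, which says only that these letters are not there.
KLF9, chr9:70601465-70601664: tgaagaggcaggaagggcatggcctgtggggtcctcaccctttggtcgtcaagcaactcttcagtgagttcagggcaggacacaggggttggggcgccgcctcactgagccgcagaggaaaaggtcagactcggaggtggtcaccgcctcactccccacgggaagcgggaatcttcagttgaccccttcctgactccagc
ACKR3, chr2:236642533-236642732: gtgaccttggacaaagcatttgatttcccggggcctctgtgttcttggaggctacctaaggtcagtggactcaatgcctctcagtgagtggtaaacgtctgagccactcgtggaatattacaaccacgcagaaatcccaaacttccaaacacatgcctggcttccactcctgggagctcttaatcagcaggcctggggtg
ERGIC1, chr5:172860927-172861126: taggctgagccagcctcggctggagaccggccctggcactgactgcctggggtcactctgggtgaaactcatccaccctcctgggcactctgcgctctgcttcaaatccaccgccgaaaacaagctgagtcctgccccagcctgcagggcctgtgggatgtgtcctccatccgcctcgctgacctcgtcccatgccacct

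The B2B-only regions near NMNAT3 and CCN1, ranked 7 and 10, are shown because they held a TEAD site within 50 bases of the summit. They were also chosen after their motifs were seen, and the window near NMNAT3 held 3 TEAD sites.
NMNAT3, chr3:139758974-139759173: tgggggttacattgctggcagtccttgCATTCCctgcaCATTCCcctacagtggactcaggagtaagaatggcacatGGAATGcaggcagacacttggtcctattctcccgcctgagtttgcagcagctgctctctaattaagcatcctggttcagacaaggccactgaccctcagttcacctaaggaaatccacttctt
CCN1, chr1:85612044-85612243: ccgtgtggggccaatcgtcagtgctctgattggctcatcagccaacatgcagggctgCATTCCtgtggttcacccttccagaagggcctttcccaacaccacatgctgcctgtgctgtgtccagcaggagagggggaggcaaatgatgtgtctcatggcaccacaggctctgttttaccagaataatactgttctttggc

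The shared regions with the highest signal in both lines were of another kind. The regions ranked 2 and 3 are shown, a GAATG-rich repeat and an AT-rich sequence. The 31 bases at these summits occur 18 times and 1 time on the numbered chromosomes, X and Y of the reference.
H3-7, chr1:143214657-143214856: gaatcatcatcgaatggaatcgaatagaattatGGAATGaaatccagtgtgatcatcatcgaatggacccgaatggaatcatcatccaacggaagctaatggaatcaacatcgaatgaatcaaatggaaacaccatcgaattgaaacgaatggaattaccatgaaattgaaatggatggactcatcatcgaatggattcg
PROS1, chr3:93470486-93470685: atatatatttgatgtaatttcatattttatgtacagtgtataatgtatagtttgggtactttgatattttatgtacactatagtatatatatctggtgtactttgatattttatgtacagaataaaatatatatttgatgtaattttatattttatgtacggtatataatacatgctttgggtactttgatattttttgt

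How many Med1 peaks were shared depended on the overlap required. Of 14558 A549 peaks, 8977 overlapped a B2B one, or 61.7% (60.9 to 62.5), and of 17420 B2B peaks, 8864 overlapped an A549 one, or 50.9% (50.1 to 51.6). Of the merged regions, 36.2% (35.6 to 36.9) were shared. With a reciprocal overlap of 50% as the rule, that share was 20.8%, and 37.8% of A549 and 31.6% of B2B peaks were shared. Shared regions were the wider ones, with a median of 780 bp against 235 bp for A549-only and 240 bp for B2B-only regions. The rule itself favours this. A shared region joins peaks of both lines, and a wide peak meets an overlap of 1 bp more easily.

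Sharing followed peak strength in both lines. Fold enrichment is the deposited ratio of the summit pileup to the local background of the peak caller. In A549, 43.7% of the peaks in the lowest quartile of fold enrichment were shared, and 84.4% of those in the highest quartile. In B2B the same shares were 28.3% and 82.7%. Median peak width also rose from the lowest to the highest quartile, from 200 to 837 bp in A549 and from 201 to 890 bp in B2B. The part of width in the sharing was not tested. The median fold enrichment was 5.81 for A549-only and 5.49 for B2B-only regions, against 8.70 in A549 and 8.45 in B2B for the shared ones. The median summit held 17 reads in A549-only, 16 reads in B2B-only and 27 or 28 reads in shared regions, so that a line-only call often rested on few reads.

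**Figure D1:**
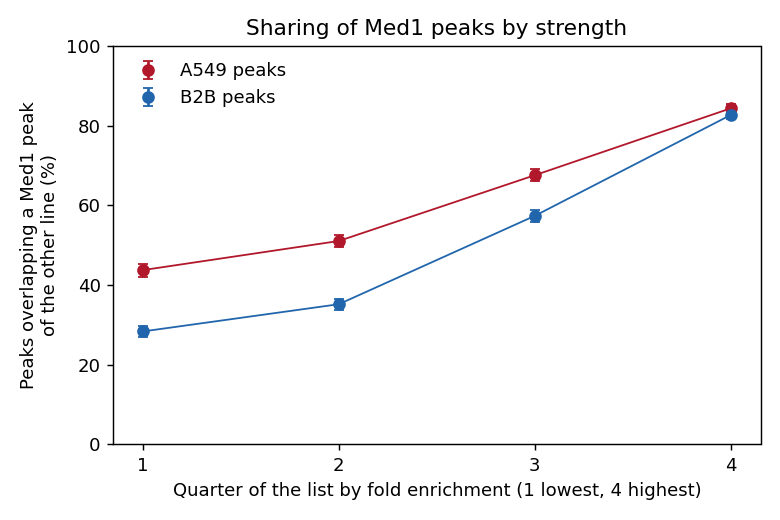
Share of the Med1 peaks of each line found in the other line as well (y axis, percent) by quartile of fold enrichment (x axis), with points for A549 and B2B and bars for 95% Wilson intervals. Both lines reach more than 80% in the highest quartile, and B2B starts lower, at 28.3% against 43.7%.

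Within the shared regions, the strengths in the lines were related but not equal. Across 8035 shared regions, the log2 fold enrichments of A549 and B2B had a Pearson correlation of 0.62, and 0.53 over the 1626 shared regions more than 1 kb from a start site. These are correlations across regions of the same 2 lists, which are not independent replicates. In 581 shared regions the A549 value was at least 2-fold above that of B2B, and in 372 regions it was the other way round. The 581 regions stronger in A549 overlapped an A549 JunB peak in 75.9% (72.3 to 79.2) and an A549 JunD peak in 58.7% (54.6 to 62.6). Among the 7082 regions within 2-fold, those shares were 45.4% (44.2 to 46.6) and 28.5% (27.4 to 29.5). Regions stronger in B2B overlapped a B2B Jun peak in 33.6% (29.0 to 38.5), against 20.02% (19.1 to 20.97) of those within 2-fold. Those stronger in A549 also carried B2B Jun more often, at 38.2% (34.3 to 42.2).

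Shared Med1 regions lay at start sites more often than line-only regions. A summit lay within 1 kb of an annotated start site in 79.8% (78.9 to 80.6) of shared, 30.9% (29.7 to 32.2) of A549-only and 44.8% (43.7 to 45.8) of B2B-only regions. The difference of A549-only from B2B-only regions was -13.8 percentage points (-15.4 to -12.2). The difference was -22.6 points with all bins kept and -4.08 points with a reciprocal overlap of 50%, where 49.7% of A549-only and 53.8% of B2B-only regions lay within 1 kb of a start. The median distance to a start was 89 bp for shared, 4010 bp for A549-only and 1525 bp for B2B-only regions.

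**Figure D2:**
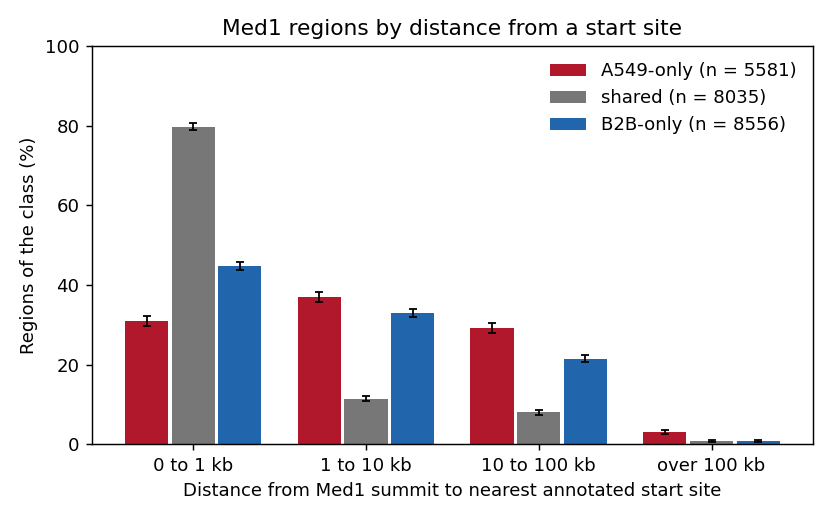
Share of the regions of each class (y axis, percent) by distance of the Med1 summit from the nearest annotated start site (x axis), with 95% Wilson intervals as error bars. Shared regions peak at 79.8% within 1 kb, while 37.0% of A549-only and 32.9% of B2B-only regions lie between 1 and 10 kb away.

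Away from start sites, introns held the most line-only regions. Introns more than 1 kb from a start held 37.8% of A549-only, 34.0% of B2B-only and 10.2% of shared regions. Sequence between genes held 27.3% of A549-only, 17.3% of B2B-only and 8.85% of shared regions. Distances over 100 kb were found for 166 A549-only and 70 B2B-only regions, or 2.97% (2.56 to 3.45) against 0.818% (0.648 to 1.03). The base composition moved with the distance. The median GC content of the 200 bases at the summit was 48.5% in A549-only and 54.5% in B2B-only regions over 1 kb from a start, and 69.5% in shared regions within 1 kb.

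Med1 regions of A549 alone carried pol II more often than those of B2B alone. Pol II of A549 overlapped 4404 of 5581 A549-only regions, or 78.9% (77.8 to 79.96), and pol II of B2B overlapped 3091 of 8556 B2B-only regions, or 36.1% (35.1 to 37.2). The difference was 42.8 points (41.3 to 44.2). It was 21.6 points with all bins kept and 4.10 points with a reciprocal overlap of 50%. The reciprocal setting also required 50% of both the Med1 region and the pol II peak to overlap, as it did for the other targets below. Pol II then counted at only 2118 of 9058 A549-only and 2298 of 11920 B2B-only regions. The pol II lists differed in length, with 33170 peaks on these chromosomes in A549 and 16953 in B2B. The local background of the peak caller near start sites was also 14.9 times its lowest value in the B2B pol II list and 1.43 times in that of A549. With lists cut to equal length the difference was 29.8 points. The part of the background in it was not tested.

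H3K27ac, in contrast, differed little between the line-only classes. It overlapped 55.1% (53.8 to 56.4) of A549-only regions in A549 and 58.9% (57.9 to 60.0) of B2B-only regions in B2B, a difference of -3.86 points (-5.53 to -2.19). More than 1 kb from a start site, the shares were 44.3% and 44.4%, with a difference of -0.0256 points (-2.14 to 2.09). The difference over all regions was -6.66 points at a -log10 q of at least 5, -7.46 with lists of equal length, -9.98 with reciprocal overlap and -19.9 with all bins kept. Shared regions carried H3K27ac in 93.0% in A549 and in 86.8% in B2B. The background of the caller near start sites stood at 16.6 times its lowest value in the B2B H3K27ac list, and at 1.88 times in that of A549.

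JunB overlapped more A549-only than B2B-only regions. JunB, Jun and JunD are AP-1 subunits, each of which can pair with Fos proteins. JunB overlapped 42.2% (40.9 to 43.5) of A549-only regions in A549 and 12.8% (12.1 to 13.5) of B2B-only regions in B2B. The difference of 29.4 points (27.96 to 30.9) was 8.18 points with all lists cut to equal length, below the 8.64 points for Jun and 8.86 points for JunD in that setting. The JunB list held 19926 peaks in A549 and 6318 in B2B. With reciprocal overlap the JunB difference was 13.9 points.

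Jun, whose list held 24939 peaks in A549 and 32978 in B2B, overlapped 43.1% (41.8 to 44.4) of A549-only and 32.3% (31.3 to 33.3) of B2B-only regions of the same line. The difference of 10.8 points (9.17 to 12.4) turned to -1.64 points when bins without a start site were kept. More than 1 kb from a start, Jun was found at 49.8% (48.2 to 51.4) of A549-only and 48.2% (46.8 to 49.7) of B2B-only regions, with a difference of 1.55 points (-0.577 to 3.67). JunD overlapped 19.0% (18.02 to 20.1) of A549-only and 8.04% (7.48 to 8.64) of B2B-only regions, a difference of 10.99 points (9.82 to 12.2), or 4.25 points with reciprocal overlap. The JunD lists were of similar length, with 6438 and 6206 peaks.

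**Figure D3:**
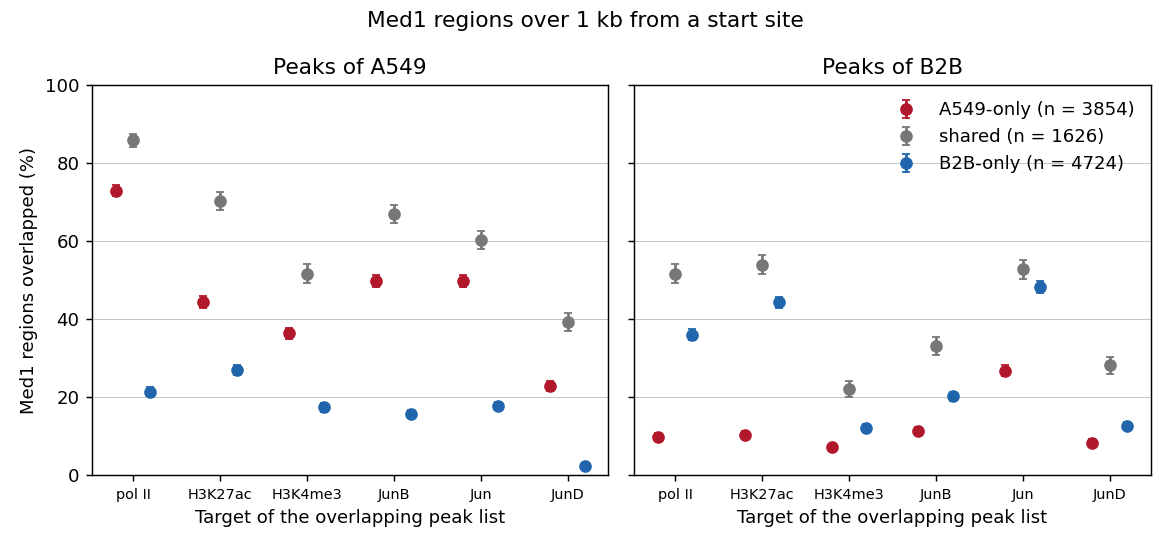
Share of Med1 regions more than 1 kb from a start site that overlapped a peak of each target (y axis, percent) in A549 (left) and B2B (right), with 95% Wilson intervals. A549-only regions overlap JunB in 49.8% in A549 and 11.5% in B2B, and B2B-only regions overlap Jun in 48.2% in B2B and 17.7% in A549.

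Regions bound by Med1 in 1 line often carried other marks in the other line, and B2B-only regions did so more for H3K27ac and pol II. A549 H3K27ac overlapped 49.6% (48.5 to 50.7) of B2B-only regions, while B2B H3K27ac overlapped 17.9% (16.9 to 18.9) of A549-only regions. For pol II of the other line, the shares were 40.4% (39.4 to 41.5) and 12.2% (11.4 to 13.1). Jun went the other way, with B2B Jun at 22.2% (21.1 to 23.3) of A549-only regions and A549 Jun at 13.3% (12.6 to 14.05) of B2B-only regions. For each of these targets the larger share was that of the longer list. The lists of A549 and B2B held 28190 and 24654 peaks for H3K27ac, 33170 and 16953 for pol II, and 24939 and 32978 for Jun. JunB and H3K4me3 followed the same order, and JunD did not. B2B JunD overlapped 6.47% (5.85 to 7.14) of A549-only regions, and A549 JunD 1.82% (1.56 to 2.13) of B2B-only regions. The JunD list of B2B was the slightly shorter one, with 6206 peaks against 6438. None of these overlaps was recomputed with lists of equal length. Hence a region without a Med1 call in a line was not always without H3K27ac or pol II there.

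Lists for CTCF and the cohesin subunit Rad21, which hold chromatin loops, were used from B2B alone. More than 1 kb from a start site, B2B CTCF overlapped 53.7% (52.2 to 55.1) of B2B-only regions and 22.7% (21.4 to 24.1) of A549-only regions. Rad21 overlapped 27.2% (26.0 to 28.5) and 8.85% (7.99 to 9.79). Shared regions at that distance had CTCF in 62.5% and Rad21 in 43.97%. The core of the CTCF motif, searched as 1 strict string of letters, was found within 50 bp of the summit in 0.423% (0.274 to 0.653) of these B2B-only regions. Windows 2 kb away from them held it in 0.0106%. It was found in 0.0778% (0.0265 to 0.229) of A549-only regions, and in shared regions at 0.431% of A549 and 0.369% of B2B summits.

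Regions more than 1 kb from a start site were then sorted by the number of Jun-family proteins of the same line on them. All 3 proteins were present on 839 of 3854 A549-only regions, or 21.8% (20.5 to 23.1), and on 535 of 4724 B2B-only regions, or 11.3% (10.5 to 12.3). None was present on 41.5% (39.9 to 43.1) and 51.6% (50.2 to 53.0). H3K27ac together with at least 1 Jun-family protein marked 25.1% (23.7 to 26.5) of A549-only and 23.3% (22.1 to 24.5) of B2B-only regions. Regions with none of pol II, H3K27ac, H3K4me3 and the Jun family made up 11.99% (11 to 13.1) of A549-only and 26.5% (25.2 to 27.8) of B2B-only regions. The lists behind these counts differed in length. Those of A549 and B2B held 19926 and 6318 peaks for JunB, 33170 and 16953 for pol II, and 24939 and 32978 for Jun. The combinations were not recomputed with lists of equal length.

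AP-1 sites were more frequent under A549-only than under B2B-only summits. Over all regions, the AP-1 site lay within 50 bp of the summit in 550 A549-only regions, or 9.85% (9.10 to 10.7), and in 429 B2B-only regions, or 5.01% (4.57 to 5.50). The difference was 4.84 points (3.94 to 5.76), 3.05 points with reciprocal overlap and 1.89 points with all bins kept. More than 1 kb from a start, the site was found in 12.2% (11.2 to 13.3) of A549-only, 15.1% (13.4 to 16.9) of shared regions in A549 and 7.39% (6.68 to 8.17) of B2B-only regions. Windows 2 kb away held it in 2.10%, 1.14% and 1.58%. The A549-only regions with a Jun-family peak of A549 had the site in 20.1% (18.5 to 21.8), and those without one in 1.126% (0.713 to 1.77). For B2B-only regions the corresponding shares were 13.99% (12.6 to 15.5) and 1.19% (0.830 to 1.70).

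Other motifs also differed in frequency between the line-only classes. The TEAD site is the target of the TEAD factors, through which the coactivators YAP and TAZ act. It lay at 11.6% (10.7 to 12.5) of B2B-only and 8.43% (7.60 to 9.35) of A549-only summits over 1 kb from a start, with 5.599% and 6.66% in windows 2 kb away. Shared regions at that distance were close to the B2B-only share, at 12.4% (10.9 to 14.1) of A549 and 11.9% (10.4 to 13.6) of B2B summits. The antioxidant response element core was found at 8.51% (7.67 to 9.43) of A549-only and 5.21% (4.61 to 5.88) of B2B-only summits. Their windows 2 kb away held it in 3.23% and 3.56%. Shared summits had this core at 9.04% (7.74 to 10.5) in A549 and 7.87% (6.66 to 9.28) in B2B, so it was not particular to A549-only regions. FOX sites (TGTTTAC), bound by forkhead factors, were found at 2.67% (2.21 to 3.23) of A549-only and 0.804% (0.587 to 1.10) of B2B-only summits. Windows 2 kb away from them held FOX sites in 1.49% and 1.33%, and shared summits in 2.15% in A549 and 1.35% in B2B. In A549-only and B2B-only regions, C/EBP sites (TTGCNNAA) were present at 7.01% (6.24 to 7.86) and 3.98% (3.46 to 4.58) of summits. RUNX sites (TGTGGTT) were present at 1.71% (1.35 to 2.17) and 3.03% (2.58 to 3.56). Their windows 2 kb away held C/EBP sites in 4.81% and 4.51%, and RUNX sites in 1.74% and 1.85%. Shared summits had C/EBP sites at 4.31% in A549 and 3.51% in B2B, and RUNX sites at 2.09% and 1.72%. Some summits lay in repeated sequence, and the TEAD shares were also taken with only summits whose 31 bases occur once on the numbered chromosomes, X and Y. They were 13.3% (12.3 to 14.4) in B2B-only and 7.98% (7.05 to 9.02) in A549-only regions.

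**Figure D4:**
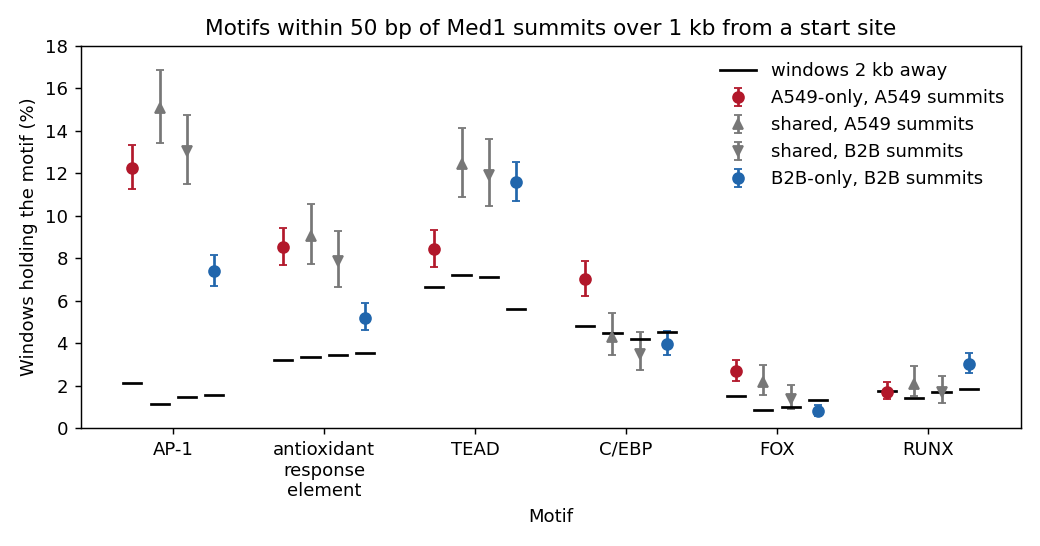
Share of windows that hold each motif within 50 bp of the Med1 summit (y axis, percent) in regions more than 1 kb from a start site, by class and line of the summit. Bars are 95% Wilson intervals and black lines give the share in windows 2 kb away. AP-1 sites reach 12.2% in A549-only and 7.39% in B2B-only regions, and TEAD sites 8.43% and 11.6%.

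At start sites, shared regions were set apart by the ETS site (CCGGAAGT), which was found at 3.35% (2.94 to 3.82) of shared summits of A549 within 1 kb of a start. It was found at 0.811% (0.484 to 1.36) of A549-only and 0.705% (0.485 to 1.02) of B2B-only summits at that distance. The site of NRF1, nuclear respiratory factor 1, was found at 0.967% (0.755 to 1.24) of these shared summits, and at 0.232% (0.0901 to 0.594) of A549-only and 0.183% (0.0885 to 0.377) of B2B-only summits. ETS factors are known to bind many promoters of genes that all cells use. These motif matches are descriptions of the sequence and do not show that a factor was bound.

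Genes were then scored by a Med1 peak within 1 kb of any of their start sites. Of 12573 protein-coding genes on the 12 chromosomes, 6159 (49%) had Med1 in both lines, 477 (3.79%) in A549 only, 1277 (10.2%) in B2B only and 4660 (37.1%) in neither. The A549-only genes had pol II at a start in A549 in 98.5% (97 to 99.3) and in B2B in 24.1% (20.5 to 28.1). The B2B-only genes had pol II in B2B in 51.6% (48.9 to 54.3), and in A549 in 78.9% (76.5 to 81.0). Thus, most genes with Med1 only in B2B had pol II at a start in A549, but pol II was common there. Among genes with Med1 in both lines, 99.97% had pol II in A549 and 86.9% in B2B. Among genes with Med1 in neither line, these shares were 16.7% and 3.88%. The pol II list of A549 was the longer one, with 33170 peaks against 16953 in B2B, and its part in these shares was not tested. The H3K27ac of the B2B-only genes was alike in the lines, at 86.6% in B2B and 89.6% in A549. That of the A549-only genes was 94.97% in A549 and 41.3% in B2B. For genes with Med1 in both lines, H3K27ac was at 99.95% in A549 and 98.7% in B2B. For genes with Med1 in neither line, it was at 26.9% and 10.9%.

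For the gene lists below, each region was also given to the protein-coding gene with the nearest start site. Over all genes, 39.5% of the 14137 line-only regions were A549-only. At least 1 A549-only region was nearest to 2500 genes (19.9%), and at least 1 B2B-only region to 4009 genes (31.9%). The median number of either kind per gene was 0, so the counts of a list can rest on a few genes. A nearest gene need not be the gene that a region acts on.

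Med1 regions of A549 alone gathered at genes of the antioxidant response driven by NRF2. All 18 NRF2 target genes on these chromosomes were nearest to at least 1 A549-only region, with 170 A549-only, 21 shared and 3 B2B-only regions in all. The A549-only share was 98.3% (95.03 to 99.4) of the line-only regions, and 97.7% with unique summits alone. The median was 8.5 A549-only and 0 B2B-only regions per gene. At the start site, Med1 was present in A549 only at 6 genes and in both lines at 12, beside 3.79% and 49% of all coding genes.

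The 6 NRF2 target genes with Med1 in A549 only encode enzymes or a pump of detoxification. They were the aldo-keto reductases AKR1B10, AKR1C1, AKR1C2 and AKR1C3, the glucuronosyltransferase UGT1A6 and the exporter ABCC2. AKR1B10, at chr7:134526224-134529733, had a region of 3510 bp with a fold enrichment of 49.7 and 162 reads at its summit, 40 bp from a start. In A549 it carried pol II, H3K27ac, H3K4me3 and the 3 Jun-family proteins, and in B2B none of them. Around AKR1C1 and AKR1C2 lay 18 A549-only regions each, and 11 were nearest to AKR1C3, with no Med1 region of B2B nearest to any of the 3. AKR1C genes are near-identical copies, and 18 of the 36 A549 Med1 peaks in their cluster at chr10:4940000-5020783 had summit sequence that recurs in the reference, so the split among them is uncertain.

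Other NRF2 target genes had Med1 at the start in both lines and further regions in A549. TXNRD1, which encodes thioredoxin reductase, had 16 A549-only, 3 shared and 1 B2B-only region. PGD, an enzyme of the pentose phosphate pathway, had 22 A549-only regions, the strongest 271 bp from a start with a fold enrichment of 48.9 and 127 reads. SLC7A11, the cystine transporter, had 16, and GCLC, which encodes the catalytic subunit of the first enzyme of glutathione synthesis, had 3. Fewer regions of this list than of all A549-only regions carried JunB or Jun. Of the 134 A549-only regions more than 1 kb from a start, JunB overlapped 20.1% (14.2 to 27.7) and Jun 21.6% (15.5 to 29.4), against 49.8% of all A549-only regions at that distance for either protein. Pol II overlapped 86.6% (79.8 to 91.3), against 72.9% of all, and the antioxidant response element core was found in 5.97% (3.06 to 11.3), against 8.51%.

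Regulators of lung and endoderm and simple epithelial keratins also had more A549-only than B2B-only regions. Of 13 regulators on these chromosomes, 3 had start-site Med1 in A549 only, 4 in both lines and 6 in neither. Over all coding genes these shares were 3.79%, 49% and 37.1%. The 13 regulators were nearest to 37 A549-only and 1 B2B-only region. HNF4G, which encodes a nuclear receptor, and FOXQ1, which encodes a forkhead factor, were among those with Med1 in A549 only, and each was nearest to 4 A549-only regions. ELF3, an epithelial ETS factor, had 9 A549-only regions, the strongest with a fold enrichment of 19.6 and 97 reads, 4874 bp from a start. KRT7, KRT8 and KRT18, with Med1 at the start in both lines, were nearest to 27 A549-only and 2 B2B-only regions.

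Epithelial junction genes were mixed. Of 18 genes, 10 had Med1 at a start in both lines, 5 in neither, EPCAM in A549 only and 2 in B2B only, ST14 among them. Over all coding genes the shares were 49%, 37.1%, 3.79% and 10.2%. EPCAM, an epithelial adhesion protein, was nearest to 5 A549-only regions. The list was nearest to 35 A549-only and 13 B2B-only regions, of which the keratins of the previous list gave 27 and 2.

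Mesenchymal and matrix genes had more B2B-only than A549-only regions. Of 32 genes, 15 had Med1 at a start in B2B only, none in A549 only, 9 in both and 8 in neither, beside 10.2% and 3.79% of all coding genes. They were nearest to 81 B2B-only and 14 A549-only regions, an A549-only share of 14.7% (8.99 to 23.2). SPARC, a matrix glycoprotein, had Med1 over its start in B2B with a fold enrichment of 20.8 and 47 reads, in a region with pol II, H3K27ac and H3K4me3 in B2B and no peak of these targets in A549. FN1 encodes fibronectin, and its strongest B2B-only region, 131 bp from an FN1 start, had a fold enrichment of 11.6 and 33 reads. At that region pol II, H3K27ac and H3K4me3 were present in A549 too. COL5A1, LOX, TNC and PDGFRB had Med1 at a start in B2B only, with 9, 4, 7 and 8 B2B-only regions nearest to them. VIM, which encodes vimentin, and ZEB1, a repressor of epithelial genes, had Med1 at a start in both lines.

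Genes of the YAP-TEAD pathway mostly had Med1 at a start in both lines, with more B2B-only than A549-only regions around them. Of 24 genes, 22 had Med1 at a start in both lines, beside 49% of all coding genes. NUAK2 had it in B2B only and FOXF2 in neither. The 24 genes were nearest to 116 B2B-only, 51 shared and 43 A549-only regions, an A549-only share of 27.04% (20.7 to 34.4). The median was 3 B2B-only and 1 A549-only region per gene. AMOTL2, a junction protein that binds YAP, gave 34 of the B2B-only regions and CRIM1 16, so the count leaned on this pair. CCN1, a secreted matricellular protein, had 8, the strongest 30681 bp from a start with a fold enrichment of 27.96 and 65 reads. F3, which encodes tissue factor, had 5. DOCK5 and WWTR1, the gene of TAZ, went the other way, with 11 and 6 A549-only regions against 0 and 1. Of the 101 B2B-only regions of this list more than 1 kb from a start, 13.9% (8.44 to 21.9) had a TEAD site within 50 bp of the summit, against 11.6% of all.

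**Figure D5:**
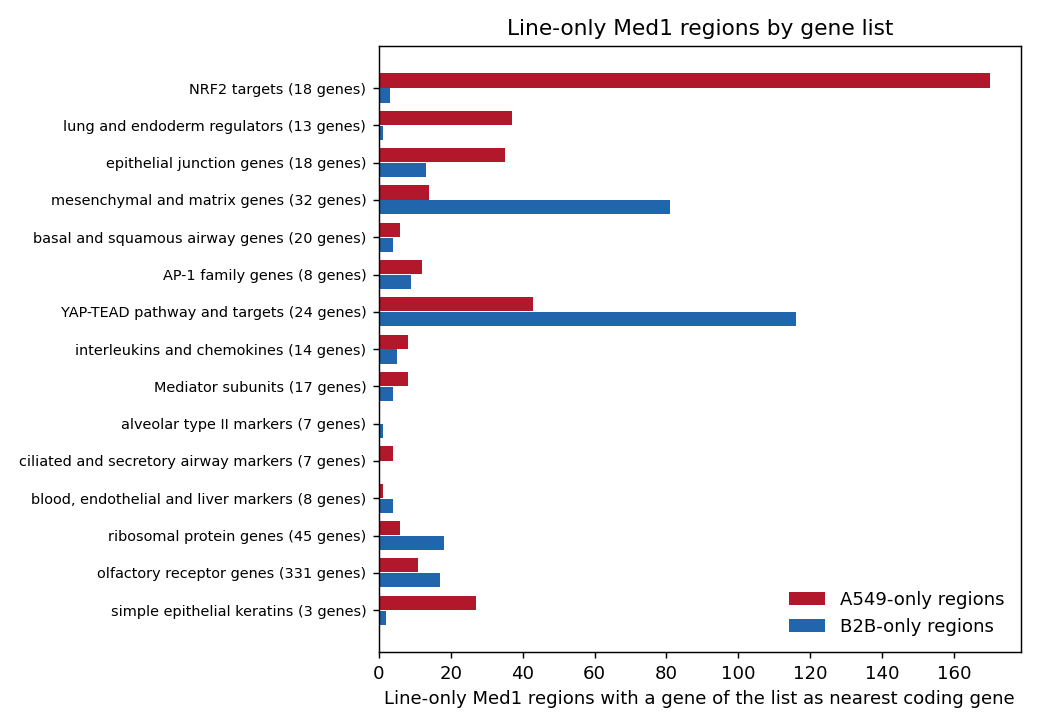
Number of A549-only and B2B-only Med1 regions (x axis) whose nearest protein-coding gene belongs to each list (y axis, with the number of genes on chromosomes 1 to 12). NRF2 targets have 170 A549-only against 3 B2B-only regions, and YAP-TEAD genes 43 against 116.

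The remaining lists gave few line-only regions. Of all coding genes, 49% had Med1 at a start in both lines, 3.79% in A549 only, 10.2% in B2B only and 37.1% in neither. Ribosomal protein genes, which all cells use, had Med1 at a start in both lines at 45 of 45. Of 331 olfactory receptor genes, which lung lines are not known to use, 330 had it in neither and 1 in B2B only. Of 8 AP-1 family genes, 7 had Med1 at a start in both lines, among them JUN, FOSL1, FOSL2 and ATF3, with 12 A549-only and 9 B2B-only regions nearest to them. Among 14 interleukins and chemokines, CXCL8 and CXCL5 had Med1 at a start in A549 only, and IL6 and CXCL1 in B2B only. Basal and squamous airway genes had no start-site peak in either line at 14 of 20, TP63 and KRT5 among them, and 6 A549-only and 4 B2B-only regions. Of 17 Mediator subunit genes, 14 had Med1 at a start in both lines and MED27 in B2B only. Ciliated and secretory airway markers had 4 A549-only and 0 B2B-only regions, with MUC5B, an airway mucin, and DNAI1 bound at a start in A549 only.

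The strongest A549-only regions away from start sites lay near ASPH, TSKU, TXNRD1, MAFK and ALDH1A1. The rule took regions with no Med1 peak of B2B within 1 kb, which 3386 of 3854 met, and named the 5 with the highest fold enrichment. The first lay 45777 bp from a start of ASPH, an aspartate hydroxylase gene, at chr8:61759395-61761062, with a fold enrichment of 57.7 and 163 reads. The second, at chr11:76767970-76772020 near TSKU, was 4051 bp wide, with a fold enrichment of 52.4 and 179 reads. The third lay in an intron of TXNRD1 at chr12:104290296-104290740, with a fold enrichment of 47.1 and 130 reads. All 3 overlapped pol II, H3K27ac, H3K4me3 and JunD in A549. In B2B, Jun was present at the first, pol II, H3K27ac and Jun at the second and H3K4me3 at the third.

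The fourth region, at chr7:1519769-1521286, lay 9841 bp from a start of MAFK, whose product is one of the small Maf partners of NRF2, with a fold enrichment of 46.5 and 135 reads. It overlapped all 3 Jun-family proteins in A549, and Jun alone in B2B. The fifth, at chr9:73050558-73051330, lay in an intron of ALDH1A1, a retinaldehyde dehydrogenase gene, with a fold enrichment of 42.3 and 167 reads. It had pol II, H3K4me3 and the 3 Jun-family proteins in A549, and none of these targets in B2B. The sixth in this order, in TXNRD1, had a fold enrichment of 41.8 and so lay just outside.

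The strongest B2B-only regions away from start sites lay near KLF9, SUSD1, ACKR3, ERGIC1 and ACTBL2. Here 4286 of 4724 regions met the rule. The first lay in an intron at chr9:70600527-70602131, with KLF9, a Krüppel-like factor gene, as the nearest coding gene at 186908 bp, a fold enrichment of 61.9 and 142 reads. Pol II, H3K27ac and the 3 Jun-family proteins of B2B were present there, and no peak of these targets in A549. The second, at chr9:112041200-112042616 in an intron 16440 bp from a start of SUSD1, had a fold enrichment of 48.9 and 112 reads, and A549 had H3K27ac, JunB and Jun at the same place.

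The third B2B-only region, at chr2:236642386-236643321, lay 72808 bp from ACKR3, a scavenger receptor for chemokines, with a fold enrichment of 34.3 and 107 reads. The fourth lay in an intron 17248 bp from a start of ERGIC1, at chr5:172860440-172861475, with a fold enrichment of 32.6 and 95 reads, and carried H3K27ac in A549. The fifth, at chr5:57889390-57889977, had ACTBL2 as nearest gene at 406794 bp, with a fold enrichment of 30.9 and 76 reads, and an AP-1 site within 50 bp of its summit. Jun of B2B was present at all 5 regions and JunD at 3. The sixth, in an intron of MEGF6, had a fold enrichment of 30.4 and lay just outside.

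Several of the strongest shared regions and most of the largest clusters lay in recurring sequence. The 5 shared regions that ranked highest in both lists lay at the end of chromosome 10, at chr1:143209996-143226388, at chr3:93470270-93470890, at chr1:628991-635011 and near the end of chromosome 4. Their fold enrichments lay between 69.6 and 105 in A549 and between 69.2 and 106 in B2B. The 31 bases at the summit occurred 917, 18, 1, 1 and 956 times on the numbered chromosomes, X and Y of the reference. Mitochondrial and unplaced sequence was not searched, so a count of 1 does not show that the sequence is unique. None lay within 1 kb of a coding start, although the fourth lay 122 bp from a start of another kind. When peaks within 10 kb were stitched, the 5 A549 clusters with the most covered bases held 42, 134, 24, 25 and 15 peaks, of which 41, 133, 23, 22 and 15 had recurring summit sequence. Of the 5 B2B clusters, that at chr1:16598471-16654099 near NBPF1 was the least repeated, with 22 of 51 peaks. The other 4 were at the same places as A549 clusters.

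Below these, clusters with mostly unique summits belonged to genes named above. They were picked after their values were seen. The sixth A549 cluster, over TXNRD1 at chr12:104276009-104322595, had 24 peaks and 21719 covered bases, where B2B had 2 peaks and 1477 bases. The cluster at MAFK had 13 peaks and 17716 covered bases in A549, and 10 peaks and 6306 covered bases in B2B. In B2B, the cluster over AMOTL2 at chr3:134353183-134375421 had 21 peaks and 17177 covered bases, none with recurring summit sequence, and A549 had 3 peaks there. At TXNRD1 7 of the 24 A549 peaks had recurring summit sequence.

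Counting line-only regions by nearest gene gave a similar mixture of genes and repeats. The 5 genes with the most A549-only regions were ATP6V0D2 with 52, ALDH1A1 with 46, CWH43 with 43, and PDE4D and RPIA with 40 each. Regions with unique summits numbered 0 at ATP6V0D2, 44 at ALDH1A1, 1 at CWH43, 40 at PDE4D and 5 at RPIA. ALDH1A1 had no shared or B2B-only region, and its start had Med1 in A549 only. PDE4D encodes a phosphodiesterase of cyclic AMP and had 2 shared and no B2B-only region.

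In B2B the 5 genes were NBPF1 with 47 B2B-only regions, AMOTL2 with 34, AFAP1 and ZSWIM6 with 21 each, and ZNF608 with 20. Unique summits numbered 24, 33, 18, 15 and 19. AFAP1 encodes a protein of actin filaments, and ZNF608 a zinc finger protein whose start had Med1 in B2B only. Over the classes, recurring summit sequence was found in 20.6% (19.6 to 21.7) of A549-only, 13.3% (12.6 to 14.1) of B2B-only and 8.77% (8.18 to 9.41) of shared regions.

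The balance of the lines varied between chromosomes. The A549-only share of line-only regions ran from 27.3% (24.9 to 29.9) on chromosome 5 to 54.8% (51.6 to 57.9) on chromosome 8, against 39.5% over all 12. Shares on chromosomes 2, 7, 8, 10 and 12 were 48.7% or more, and those on 1, 5 and 6 were 30.2% or less. The DNA copy number of the lines was not measured here, so occupancy and copy number cannot be told apart.

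At the CDKN2A and CDKN2B genes on chromosome 9, the contrast was complete. Within 100 kb of these inhibitors of cyclin-dependent kinases, at chr9:21867752-22109305, B2B had 18 Med1 peaks with a highest fold enrichment of 48.9. It also had 28 pol II and 16 Jun peaks there. A549 had no peak of any of its 7 targets in that interval, so lack of binding and lack of the DNA itself cannot be told apart.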

How the data were processed

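The data were peak lists of ChIP-seq in A549 and B2B cells, 16 lists of which 2 were for Med1. Per the methods of the study and the submitters' processing notes, the authors aligned reads to hg38 with Bowtie2 2.4.4, used SAMtools 1.13, merged the 2 replicates of each group and called peaks with MACS2 2.2.7.1. The options and control of the peak caller are not given in the sources used here. The authors deposited for each peak a fold enrichment (the ratio of summit pileup to local background), a −log10 p-value and a q score, the −log10 q-value, whose lowest Med1 value was 2.01. The Med1 lists used here ended on chromosome 15, and chromosomes 1 to 12 were analysed.

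The members and the gene lists were chosen with earlier results of these data known. Start sites were those of all genes in GENCODE release 44. Of 2084 bins of 1 Mb, 59 held no start site and were left out. Pileup and background were solved from fold enrichment and p-value, and summit pileups came out whole for 100% of Med1 peaks within a relative tolerance of 0.0001. Background near starts was solved for every 10th peak of each list. Merging and overlaps were computed with NumPy 2.4.6 under Python 3.11.15. Wilson intervals were computed from their formula, and intervals of differences were those of Newcombe. SciPy 1.17.1 was used for the correlations and in solving the pileups. With 1 pooled list a line, no test was made. Sequence was read with pysam 0.24.0 and samtools 1.23.1, and figures were drawn with Matplotlib 3.10.9. Summits were counted as recurring if their 31 bases occurred more than once on the numbered chromosomes, X and Y of the reference. Mitochondrial and unplaced sequence was not searched, and unique summits are unique in this sense only. Of the 10 motifs searched within 50 bp of summits, 1 is not described here. In tests on simulated lists of 5000 intervals, 4 of 4 overlap counts equalled those of bedtools 2.31.1, and 94.6% of 2000 simulated difference intervals held the known value.

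Named regions and genes were, per line, the 5 line-only regions over 1 kb from a start with the highest fold enrichment and no Med1 peak of the other line within 1 kb, the 5 coding genes nearest to the most line-only regions, the 5 stitched clusters with the most covered bases, and the 5 shared regions with the highest lower rank. From each gene list, 2 to 5 members were to be named, and further members named in the text were chosen after their values were seen. Sequences were taken from the first 3 regions of each kind outside chromosome 8 and annotated untranslated regions, of which some sequences and genes are not reported here, with 3 more A549-only and 2 more B2B-only regions chosen for their motifs. Of the 32 NRF2 target symbols, 31 matched the annotation. The alternatives were a −log10 q of at least 5, all bins kept, lists of equal length by −log10 p, reciprocal overlap of 50%, no peak of the other line within 1 kb, 3 kb for start sites, coding starts alone and unique summits. Reciprocal overlap was required both between the Med1 peaks of the lines and between Med1 regions and the peaks of other targets.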

Additional observations from a re-analysis of the deposited data

Results flagged for a closer look

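Med1 peaks were also called outside the regions compared. On chromosomes 1 to 12, the A549 list held 3436 peaks in 1-Mb bins that have no start site, or 19.1% (18.5 to 19.7) of its peaks there, and the B2B list held 1126, or 6.07% (5.74 to 6.42). Of these, 98.5% in A549 and 96.7% in B2B had summit sequence that recurs in the reference, and none held an AP-1 site within 50 bp. Chromosomes 13 to 15 held a further 2032 peaks in A549 and 2059 in B2B. No control list was used to set these counts against.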

How the results depend on the processing

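The alternatives gave 63 values, of which 26 moved by less than the counting interval or, for gene counts, by less than 1.5 times, 36 moved by more and 1 changed sign. The cause of the shifts was not tested. With bins without a start site kept, the Jun difference between A549-only and B2B-only regions turned to -1.64 points. The same setting gave a ratio of A549 to B2B peaks of 0.970, a shared share of 34.8%, and differences of -22.6 points within 1 kb of a start, 21.6 for pol II, -19.9 for H3K27ac, 8.38 for JunD and 1.89 for the AP-1 site. A −log10 q of at least 5 gave a ratio of 0.859, a shared share of 37.97%, and 40.1 points for pol II and -6.66 for H3K27ac. Lists of equal length gave a ratio of 1, a shared share of 38.2%, -12.03 points within 1 kb of a start, 29.8 for pol II, -7.46 for H3K27ac, 8.18 for JunB, 8.64 for Jun and 8.86 for JunD. Reciprocal overlap of 50% gave a shared share of 20.8%, -4.08 points within 1 kb of a start, 4.10 for pol II, -9.98 for H3K27ac, 13.9 for JunB, 7.40 for Jun, 4.25 for JunD and 3.05 for the AP-1 site. Without peaks of the other line within 1 kb, pol II differed by 41.2, JunB by 31.5 and JunD by 12.3 points. Unique summits alone, an alternative chosen after the data were seen, gave a shared share of 37.3% and differences of 48.5 points for pol II, 31.5 for JunB, 15.3 for Jun, 12.8 for JunD and 5.83 for the AP-1 site. The counts of coding genes with start-site Med1 in A549 only lay between 477 and 616, and in B2B only between 1071 and 1317. No paired analysis was possible because the replicates were merged before peaks were called, and for the same reason no replicate could be left out.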
